A study of Mus musculus with 12 samples.

Results

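The expression of 10 genes was followed across naive, antigen-primed and costimulated CD8 T cells: Izumo1r, Nt5e, Cblb, Rnf128, Itch, Dgka, Dgkz, Nrp1, Tox and Tox2. They were picked by symbol, as genes linked to T cell anergy together with Tox and its relative Tox2, from 55536 annotated genes in the count table. All 10 passed the filter on low counts, as did 18817 genes in all. The choice was made with results of these same libraries known, so the levels of the 10 genes are given as descriptions and carry no p-value.

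The libraries were bulk RNA-seq of CD8 T cells from the OT-I transgenic strain on a C57BL/6J background, whose T cell receptor recognises the ovalbumin peptide SIINFEKL. In the Ag group (5 libraries) OT-I cells were transferred into C57BL/6J mice that received the peptide with control IgG. In the Ag+Costim group (5 libraries) the recipients received the peptide with the agonist antibodies anti-OX40 and anti-41BB, which bind CD134 and CD137. Both groups were collected from spleen and lymph nodes, after 4 days by the labels, and sorted as transferred CD8 T cells; the Naive group (2 libraries) came from OT-I mice without transfer, so Naive differed from the other groups in transfer and host as well as in antigen. The ages of the mice are not used here, and sex enters only through a term for Y-linked genes in an alternative fit. Each library is taken as a separate sample because the labels number it as one.

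Anergy is the hyporesponsive state that T cells can enter when the receptor is engaged without costimulation. Izumo1r encodes folate receptor 4 and Nt5e encodes CD73, the ecto-enzyme that turns extracellular AMP into adenosine; the pair is best known as surface markers of anergic CD4 T cells. Cblb, Rnf128 (GRAIL) and Itch encode ubiquitin ligases that restrain receptor signalling, while Dgka and Dgkz encode kinases that consume diacylglycerol and so dampen RAS and protein kinase C signalling. Nrp1 is a coreceptor for semaphorins and VEGF that is often used as a marker of regulatory T cells, and Tox and Tox2 are HMG-box transcription factors linked to exhaustion of CD8 T cells.

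Promoter sequences were taken from RefSeq (GRCm38.p6, 250 bases before to 50 bases after an annotated start), which gave windows for 8 of the 10 genes; Itch and Tox had none in the table. The windows of the 3 surface molecule genes are shown, whose levels were all highest in Ag: Izumo1r (chr9:14903718-14904017, minus strand), Nrp1 (chr8:128358823-128359122, plus strand) and Nt5e (chr9:88327359-88327658, plus strand). Capitals mark the NFAT core letters GGAAA on either strand.
Izumo1r: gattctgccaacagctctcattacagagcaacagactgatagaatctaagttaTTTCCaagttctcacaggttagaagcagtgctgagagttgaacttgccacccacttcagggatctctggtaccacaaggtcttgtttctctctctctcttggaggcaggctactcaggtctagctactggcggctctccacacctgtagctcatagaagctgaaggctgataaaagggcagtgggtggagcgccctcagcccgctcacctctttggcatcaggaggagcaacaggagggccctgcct
Nrp1: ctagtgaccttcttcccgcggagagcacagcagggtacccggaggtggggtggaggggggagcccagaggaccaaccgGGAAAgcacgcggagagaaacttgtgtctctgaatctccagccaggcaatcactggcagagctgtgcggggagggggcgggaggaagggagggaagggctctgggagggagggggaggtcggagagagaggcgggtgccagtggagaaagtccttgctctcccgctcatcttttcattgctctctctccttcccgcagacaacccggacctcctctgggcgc
Nt5e: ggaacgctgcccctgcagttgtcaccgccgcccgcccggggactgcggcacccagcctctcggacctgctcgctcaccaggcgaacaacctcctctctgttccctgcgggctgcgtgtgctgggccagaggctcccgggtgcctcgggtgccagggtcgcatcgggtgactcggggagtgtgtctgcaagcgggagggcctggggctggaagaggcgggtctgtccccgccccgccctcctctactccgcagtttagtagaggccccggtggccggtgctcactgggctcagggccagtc
The Izumo1r window held GGAAA once, on the opposite strand at bases 54 to 58 of the window, the Nrp1 window once at bases 79 to 83, and the Nt5e window not at all. Of all 32851 windows 61.3% held GGAAA on at least one strand. The AP-1 letters TGANTCA, present in 7.81% of all windows, were in none of the windows of the 8 genes, and the EGR core GTGGGCG, present in 7.97%, was in 1 window each of Rnf128 and Dgkz. The searched motifs do not overlap each other in the 3 windows shown.

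Coverage-derived counts of annotated genes came to between 39994606 and 49258758 in 11 libraries and to 23976932 in the shallow one, Ag replicate 4. Levels are given as CPM, these counts relative to the library size after TMM scaling. FPKM, which also divides by transcript length, is named where used. The counts exceed the reads behind them: Ag replicate 1 had 45951519 counts from 44171082 reads, of which 74.5% aligned. The listed input amount and the markers of other cells moved with the groups, and their part in the results was not tested. The core's sheet lists an input amount of 0 for every Ag library, 10 for every Ag+Costim library, and 8.5 and 10.7 for the Naive libraries, with no unit. The summed level of 5 red cell genes was 519 to 5286 CPM in Ag, 11.2 to 186 in Ag+Costim and 125 to 1709 in Naive, and that of 6 B cell genes was 125 to 174, 41.7 to 86.9 and 27.8 to 30.9 CPM in the same order of groups. The sum of 5 endothelial and stromal genes was likewise lower in Ag+Costim, at 39.4 to 76.7 CPM, than in the other groups. It was 99.99 to 129 CPM in Ag and 131 to 142 in Naive. Most of it in every group was Pecam1, with medians of 45.9 CPM in Ag+Costim, 110 in Ag and 131 in Naive. The sum of 4 NK cell genes was higher in Ag+Costim, at 97.6 to 123 CPM, than in the other groups. It was 37.9 to 65.1 CPM in Ag and 37.5 to 39.6 in Naive. Most of it in Ag+Costim was Eomes, whose median was 29.5 CPM in Ag and 102 in Ag+Costim. From Ag to Ag+Costim the medians of Klrb1c (9.29 to 0.879 CPM) and Ncr1 (3.12 to 1.35 CPM) fell. That of Klre1 rose from 3.91 to 10.7 CPM. Which cells the Pecam1 and Eomes reads came from was not tested. The sum of 8 myeloid genes overlapped between Ag and Ag+Costim. The 8 CD8 T cell markers summed to 9710 to 13903 CPM in Ag, 5700 to 7791 in Ag+Costim and 11252 to 11894 in Naive, and none was at 0 in any group.

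Izumo1r had by far the widest difference of the 10 genes between Ag and Ag+Costim. It measured 282, 310, 270, 194 and 236 CPM in the 5 Ag libraries, 9.06, 3.83, 4.97, 7.38 and 2.83 CPM in the 5 Ag+Costim libraries, and 10.1 and 6.76 CPM in the Naive libraries. Every Ag library stood above every library of both other groups, and Ag+Costim overlapped Naive. The mean was 259 ± 44.8 CPM (SD, n = 5) in Ag against 5.61 ± 2.56 (n = 5) in Ag+Costim, 46.0-fold, and 8.43 ± 2.36 (n = 2) in Naive, 30.7-fold. The fitted log2 fold change was -5.52 (SE 0.31) for Ag+Costim against Ag, 4.94 (SE 0.45) for Ag against Naive and -0.59 (95% interval -1.25 to 0.08) for Ag+Costim against Naive. In bulk RNA, fewer cells that express a gene and less RNA per cell cannot be told apart.

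Izumo1r is also abundant in regulatory T cells. Foxp3 lay at or below 0.783 CPM in all Ag libraries and Cd4 at or below 1.70 CPM. The 5 CD4 and regulatory T cell markers summed to 57.2 to 72.4 CPM in Ag, 66.3 to 77.8 in Naive and 13.0 to 17.4 in Ag+Costim, with Ikzf2 the largest part of it in Ag and Naive. The sum was thus lower in every Ag+Costim library than in every Ag library, like Izumo1r, and overlapped between Ag and Naive, unlike Izumo1r. Of its genes, Ikzf2 and Cd40lg were lower in every Ag+Costim library, while Cd4, Foxp3 and Zbtb7b overlapped between Ag and Ag+Costim. The part of these markers in the Izumo1r values was not tested.

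Nt5e was also highest in Ag, with a smaller difference than Izumo1r. It measured 69.5, 111, 49.0, 54.1 and 91.1 CPM in Ag, 26.3, 16.3, 11.5, 27.1 and 6.44 CPM in Ag+Costim, and 14.3 and 11.8 CPM in Naive. The lowest Ag library lay above the highest of either other group. Means were 75.0 ± 26.0, 17.5 ± 9.09 and 13.1 ± 1.80 CPM, so that Ag was 4.28-fold above Ag+Costim and 5.74-fold above Naive. The log2 fold change was -2.10 (SE 0.35) for Ag+Costim against Ag and 0.43 (95% interval -0.49 to 1.34) for Ag+Costim against Naive. Among the 10 genes Nt5e had the largest pooled SD within groups, 0.67 on log2 CPM with a prior count of 2, close to Tox2 (0.66) and Rnf128 (0.64). As a percent of the mean, its SD was the largest of the 10 in Ag+Costim, at 51.9%. In Ag it was 34.7%, below Rnf128 (40.2%) and Tox2 (39.5%).

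**Figure D1:**
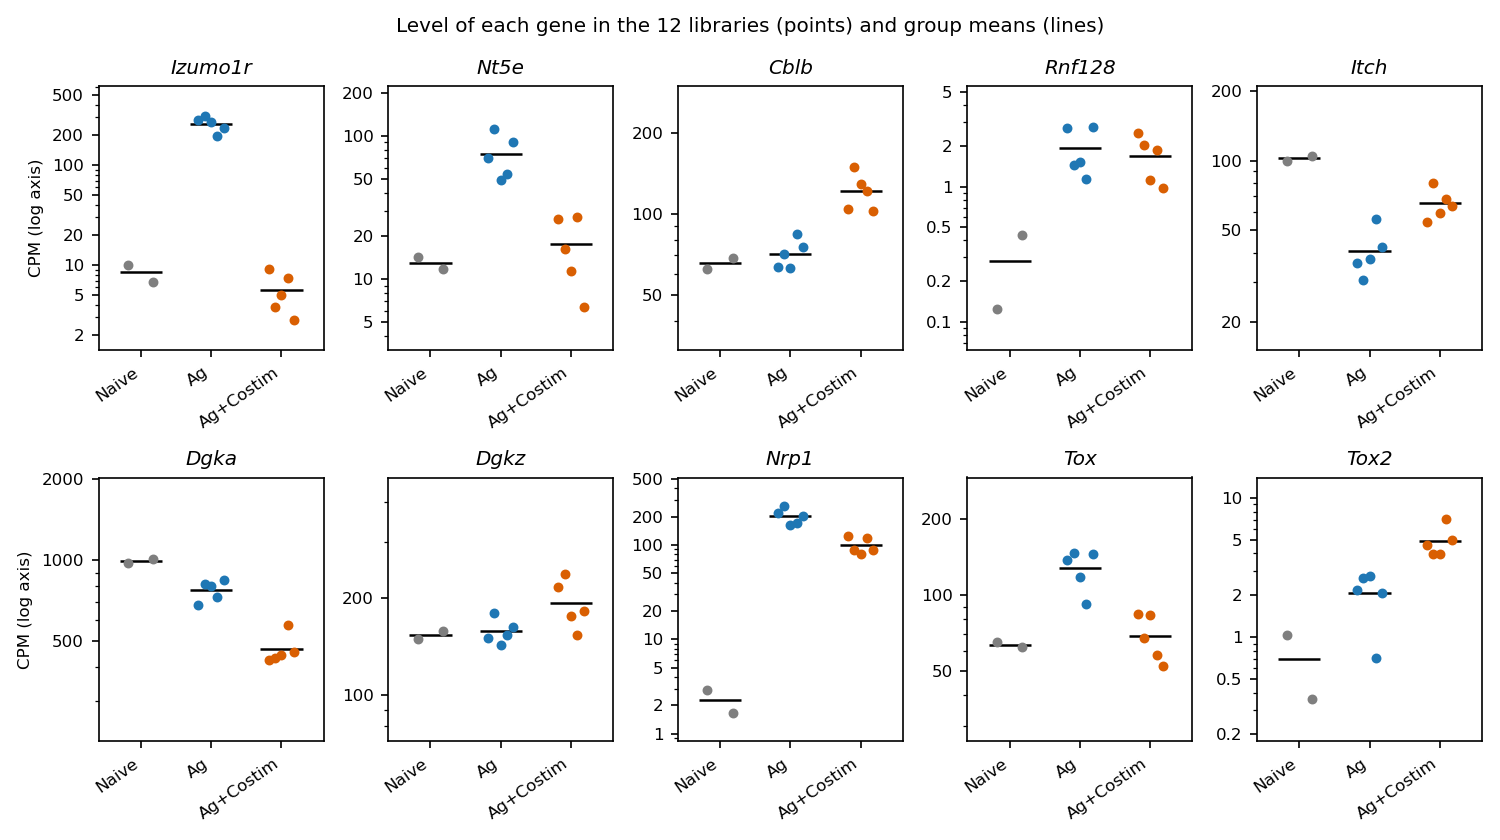
Level of each of the 10 genes in CPM on a log axis, by group; points are libraries (Naive 2, Ag 5, Ag+Costim 5) and lines are group means. For Izumo1r, Nt5e, Nrp1 and Tox every Ag library lies above every Naive and Ag+Costim library, while Cblb and Tox2 are highest in Ag+Costim and Itch and Dgka in Naive.

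Nrp1, the semaphorin and VEGF coreceptor, was scarce in Naive cells and abundant in both groups that met antigen. It measured 2.88 and 1.66 CPM in Naive, 219, 260, 162, 173 and 203 CPM in Ag, and 123, 89.2, 80.9, 120 and 89.6 CPM in Ag+Costim. The 3 groups did not overlap. Mean levels were 2.27 ± 0.864, 204 ± 39.2 and 101 ± 19.5 CPM, an 89.7-fold difference between Ag and Naive and 44.3-fold between Ag+Costim and Naive. The log2 fold change for Ag+Costim against Ag was -1.02 (SE 0.17). Unlike Izumo1r and Nt5e, Nrp1 in Ag+Costim thus stayed far above its Naive level, by 5.47 (SE 0.32) on the log2 scale.

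Tox was highest in Ag with a narrower range. It measured 138, 147, 118, 92.0 and 145 CPM in Ag, 83.8, 67.3, 82.9, 57.5 and 52.3 CPM in Ag+Costim, and 65.0 and 61.8 CPM in Naive. The lowest Ag library, the shallow replicate 4, lay just above the highest Ag+Costim library. Ag was 2.02-fold above Naive and 1.86-fold above Ag+Costim, with log2 fold changes of 1.02 (SE 0.21) for Ag against Naive and -0.90 (SE 0.15) for Ag+Costim against Ag. The value for Ag+Costim against Naive was 0.12 (95% interval -0.28 to 0.52).

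Tox2 had a different order, with Ag+Costim highest. It measured 4.58, 3.97, 3.99, 7.03 and 4.98 CPM in Ag+Costim, 2.17, 2.66, 2.77, 0.712 and 2.09 CPM in Ag, and 1.03 and 0.357 CPM in Naive. Every Ag+Costim library was above every other library, and Ag overlapped Naive through replicate 4. The log2 fold change was 1.23 (SE 0.35) for Ag+Costim against Ag and 2.82 (SE 0.54) for Ag+Costim against Naive. These levels rested on 17 and 50 counts in Naive, 18 to 119 in Ag and 179 to 302 in Ag+Costim. For Ag against Naive the value was 1.59 (SE 0.51), and it ran from 1.02 without Naive replicate 2 to 2.54 without Naive replicate 1. The value for Ag+Costim against Naive ran from 2.24 to 3.76 without the same libraries.

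The ubiquitin ligases did not share a pattern. Cblb measured 63.2, 70.7, 62.9, 83.9 and 75.1 CPM in Ag, 104, 149, 129, 121 and 102 CPM in Ag+Costim, and 62.5 and 68.6 CPM in Naive. Ag overlapped Naive and all Ag+Costim libraries lay above both, by 1.70-fold over Ag (log2 fold change 0.77, SE 0.12). Itch was highest in Naive at 99.8 and 105 CPM, against 36.2, 30.5, 37.6, 55.8 and 42.4 CPM in Ag and 54.0, 80.3, 59.6, 68.5 and 63.8 CPM in Ag+Costim. The Ag and Ag+Costim ranges of Itch overlapped through replicate 4 of Ag, with a log2 fold change of 0.69 (SE 0.15) between them and of -1.34 (SE 0.19) for Ag against Naive. Rnf128 was scarce everywhere, with 6 and 21 counts in the Naive libraries, 29 to 125 in Ag and 38 to 105 in Ag+Costim. Its mean was 1.93 ± 0.776 CPM in Ag and 1.70 ± 0.637 in Ag+Costim, whose ranges overlapped (log2 fold change -0.18, 95% interval -0.94 to 0.57), and both lay above the 0.123 and 0.441 CPM of the Naive libraries. The log2 fold change of Ag against Naive for Rnf128, 2.77 (SE 0.62), ran from 2.12 without Naive replicate 1 to 3.94 without Naive replicate 2.

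The diacylglycerol kinases also parted. Dgka was the most abundant of the 10 genes in every group and was graded, with 978 and 1015 CPM in Naive, 684, 815, 801, 731 and 848 CPM in Ag, and 425, 432, 446, 576 and 454 CPM in Ag+Costim. No groups overlapped, and the log2 fold change was -0.73 (SE 0.10) for Ag+Costim against Ag and -0.36 (SE 0.13) for Ag against Naive. Dgkz stayed within a narrow span, with 149 and 158 CPM in Naive, 151, 180, 143, 154 and 163 CPM in Ag, and 217, 238, 176, 154 and 182 CPM in Ag+Costim. All 3 groups of Dgkz overlapped, and the log2 fold change for Ag+Costim against Ag was 0.29 (SE 0.11). It became -0.00399 when a trend of level on the joined length of all annotated exons of a gene was removed from each library.

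**Figure D2:**
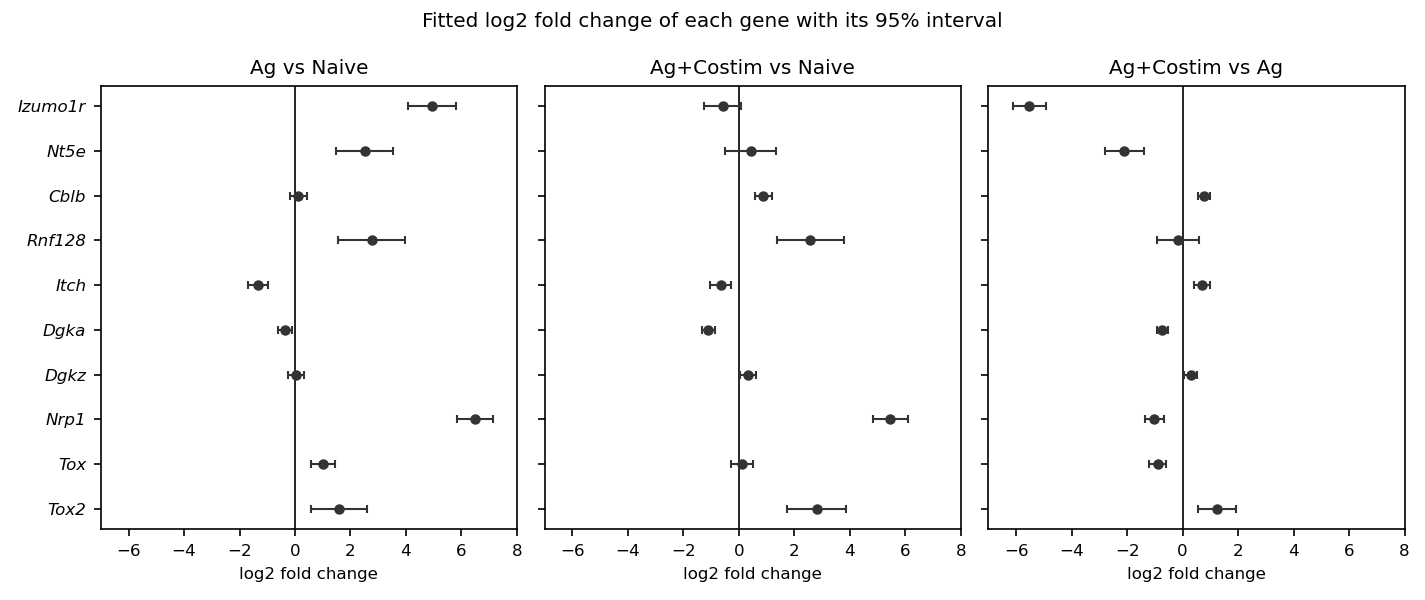
Fitted log2 fold change of each gene in the 3 comparisons (edgeR, all 12 libraries); points are estimates and bars 95% intervals. Izumo1r stands at -5.52 for Ag+Costim against Ag and at 4.94 for Ag against Naive, and its interval for Ag+Costim against Naive, like those of Nt5e and Tox, includes 0.

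Counted together, 4 of the 10 genes passed edgeR's threshold as higher and 5 as lower in Ag+Costim than in Ag, where 53.1% of all genes tested passed it (26.6% higher, 26.5% lower). The libraries of the groups did not overlap for 7 of the 10, against 39.8% of all genes. For Ag against Naive, 6 passed as higher and 2 as lower (background 46.7%, 24.2% higher and 22.5% lower), with no overlap for 7 (background 56.4%). For Ag+Costim against Naive, 4 passed as higher and 2 as lower (background 52.3%, 26.9% higher and 25.4% lower), with no overlap for 6 (background 66.0%). Izumo1r, Nt5e, Nrp1 and Tox had every Ag library above all others, a pattern of 8.39% of all genes. Because these comparisons were in view when the genes were chosen, and share groups with each other, nothing is read from the counts. The median log2 fold change of the 10 genes was -0.46 for Ag+Costim against Ag, 1.30 for Ag against Naive and 0.38 for Ag+Costim against Naive, beside -0.05, 0.02 and -0.02 for all genes tested.

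Ag replicate 4 was the lowest Ag library for Izumo1r, Rnf128, Tox and Tox2 and the highest for Cblb and Itch. Without it the log2 fold change for Ag+Costim against Ag was -5.61 for Izumo1r, -0.997 for Tox, 1.02 for Tox2, 0.83 for Cblb and 0.83 for Itch. None of these changed sign.

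Levels per length ordered the genes differently in each group. In Ag, mean FPKM was 271 for Dgka, 208 for Izumo1r, 58.3 for Nrp1, 46.2 for Dgkz, 32.7 for Tox, 20.3 for Nt5e, 14.7 for Cblb, 12.5 for Itch, 0.686 for Rnf128 and 0.683 for Tox2. The Dgka and Izumo1r ranges overlapped there, as did those of Nrp1 and Dgkz, of the neighbours from Tox through Itch, and of Rnf128 and Tox2. In Ag+Costim, Izumo1r stood at 4.34 FPKM, below Itch at 16.1 without overlap, and overlapped Nt5e at 4.30. In Naive it stood at 7.44 FPKM, between Cblb at 15.5 and Nt5e at 3.87, and overlapped neither. Itch, at 37.0 FPKM in Naive, lay below Dgkz and above Tox without overlap.

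The positions of the genes were taken from GENCODE vM21 on mm10. Izumo1r (ENSMUSG00000031933.17) spans chr9:14885814-14903949 on the minus strand and Nt5e (ENSMUSG00000032420.8) chr9:88327197-88372092 on the plus strand. Tox (ENSMUSG00000041272.11) spans chr4:6686353-6991557 and Nrp1 (ENSMUSG00000025810.9) chr8:128358604-128503363. Dgka (ENSMUSG00000025357.8, chr10:128720134-128744855, minus strand) shares bases with Pmel on the plus strand, and the libraries do not mark strand. Pmel was assigned 2.66 to 5.02 CPM in Ag and 1.22 to 2.68 CPM in Ag+Costim, so few counts beside those of Dgka. The other annotated genes that overlap one of the 10 stood at or below 0.746 CPM in every library.

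Transcript counts show which annotated forms the assigned reads were given to, and short single reads leave this assignment uncertain. Nrp1-201, the coding form, took 81.6, 83.1, 83.5, 70.0 and 85.5% of Nrp1 transcript counts in Ag and 90.2, 88.1, 86.5, 89.0 and 88.2% in Ag+Costim, without overlap. The retained-intron form Nrp1-203 took 15.0 ± 3.37% in Ag (n = 5), 7.71 ± 1.36% in Ag+Costim (n = 5) and 19.4 ± 1.19% in Naive (n = 2), and the Ag and Ag+Costim ranges did not overlap. The retained-intron form Dgkz-208 went the same way, with ranges of 3.08 to 3.68% in Naive, 1.22 to 2.42% in Ag and 0.696 to 0.967% in Ag+Costim. Tox-204, also a retained-intron form, had the reverse order, with 0.301 to 0.604% in Ag and 1.15 to 2.51% in Ag+Costim. Other retained-intron forms, Itch-204 and Cblb-202 among them, overlapped between Ag and Ag+Costim. Of the leading forms of the 10 genes, only Nrp1-201 did not overlap between these groups. The share over all genes is not given here, so nothing is read from this count.

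Dgka was shared mainly by the coding form Dgka-201 and by Dgka-203, which is annotated as a target of nonsense-mediated decay. Dgka-203 took 30.3, 34.1, 29.0, 24.9 and 22.6% in Ag and 10.3, 17.1, 11.5, 23.7 and 8.20% in Ag+Costim. The ranges met only through Ag+Costim replicate 4, at 23.7%, which was also the library with the highest Dgka level of its group, 576 CPM. Itch and Cblb split between coding forms in a way that varied more between libraries of a group than between groups. Itch-202, for example, was given 2476 counts in one Naive library and 20 in the other.

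**Figure D3:**
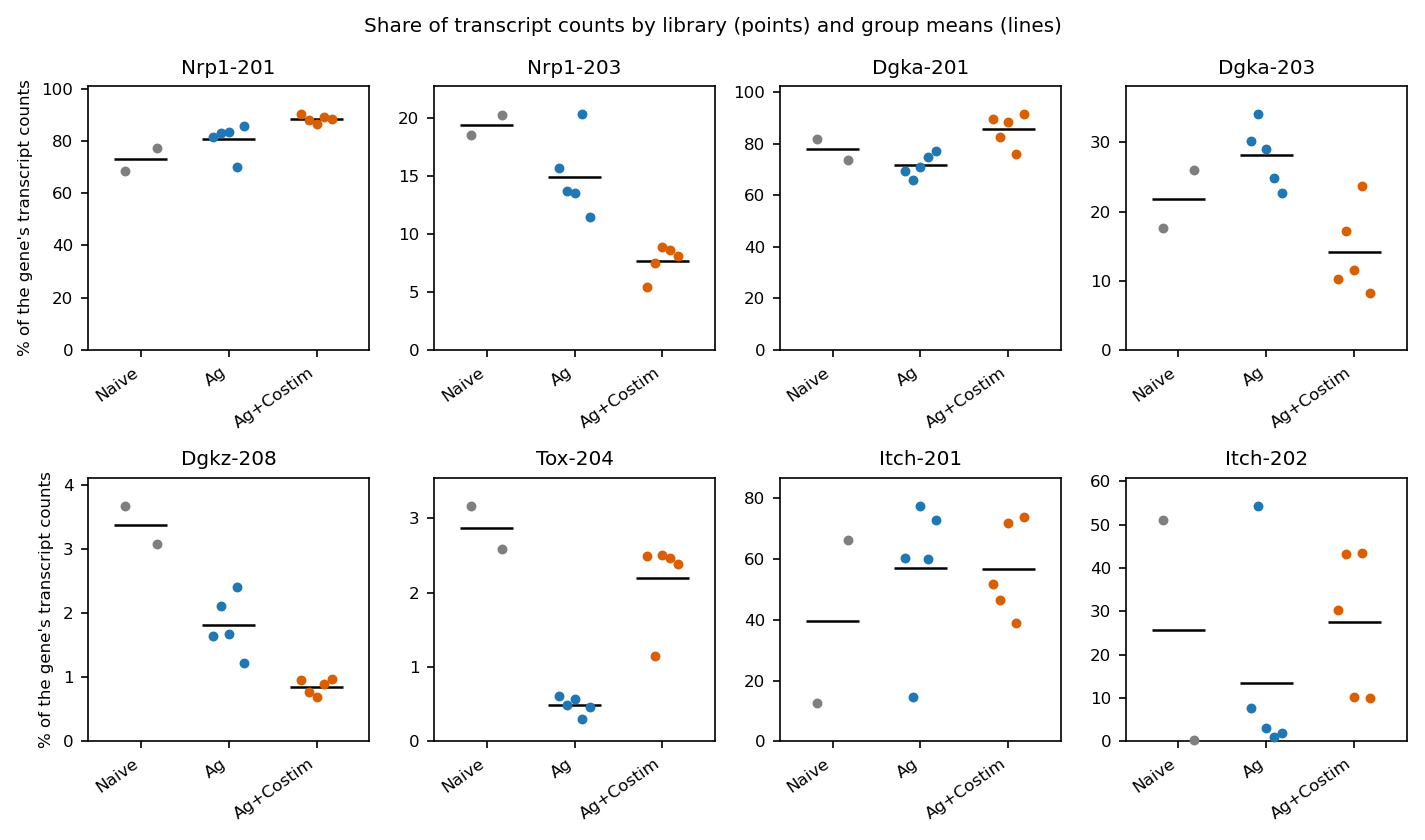
Share of a gene's transcript counts given to 8 annotated transcripts, in percent, by library (points) with group means (lines). Nrp1-203 and Dgkz-208 are lower and Tox-204 is higher in every Ag+Costim library than in every Ag library, while Itch-201 and Itch-202 spread widely within each group.

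Percent spliced in (Psi), the share of reads at a node of the gene that include it, was deposited with 1 value per group for Ag and Ag+Costim, with no coverage, so these values have no error. The share of all nodes that differ by more than 0.05 is not given here, so nothing is read from the number in the 10 genes. Of the 158 nodes listed for the 10 genes, 12 differed by more than 0.05. They were 7 of 10 nodes of Izumo1r, 3 of 11 of Tox2 and 2 of 35 of Dgkz, and none of the nodes of the other 7 genes differed by this much. In Izumo1r they were 3 start nodes, 2 end nodes and 2 internal exons. The alternative start node at chr9:14903757-14903884 had a Psi of 0.0272 in Ag and 0.243 in Ag+Costim, and that at chr9:14903713-14903756 had 0.385 and 0.130. The first covers bases 134 to 261 of the Izumo1r promoter window shown above and the second begins at base 262, both past the GGAAA match. The end node at chr9:14900028-14900240 had 0.254 in Ag and 0.581 in Ag+Costim. The other end node, chr9:14900023-14900027, had 0.746 and 0.419, so the ends of the pair lie only a few bases apart. The internal exon at chr9:14901648-14901836 had 0.957 and 0.892. The Ag values rested on 4904 to 13855 gene counts per library and those of Ag+Costim on 109 to 382. In Dgkz the end node at chr2:91932827-91933525 had a Psi of 0.0626 in Ag and 0.339 in Ag+Costim. The end node at chr2:91932824-91932825 had 0.753 and 0.457, so these ends also lie only a few bases apart.

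Genes whose pattern over the 12 libraries was nearest to Izumo1r were Ccr10, Cd200, Gm14085, Gm11579 and AC140469.1, by the root mean square difference of log2 CPM after each gene was centred on its mean, out of 11742 genes. Ccr10, a chemokine receptor, differed by 1.00 and stood at 17.9 ± 8.30 CPM in Ag, 0.854 ± 0.431 in Ag+Costim and 0.502 ± 0.448 in Naive. Cd200, an immunoglobulin family surface protein, differed by 1.06 and stood at 256 ± 85.9, 19.7 ± 7.39 and 6.66 ± 0.535 CPM. None came closer to Izumo1r than 1.00 on the log2 scale. The nearest to Tox were Fam3c, at 0.13, and Mocs3, Tmem173, Gm8121 and Ube2q2, the last at 0.19. The distances are not comparable between the 2 genes, since centred log2 CPM ran from -3.31 to 3.45 for Izumo1r and from -0.73 to 0.76 for Tox. Fam3c, a secreted protein gene, measured 122 ± 18.4 CPM in Ag, 64.2 ± 10.8 in Ag+Costim and 58.2 ± 2.23 in Naive. Tmem173, the innate DNA-sensing adaptor STING, measured 345 ± 53.8, 209 ± 14.4 and 182 ± 7.19 CPM.

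**Figure D4:**
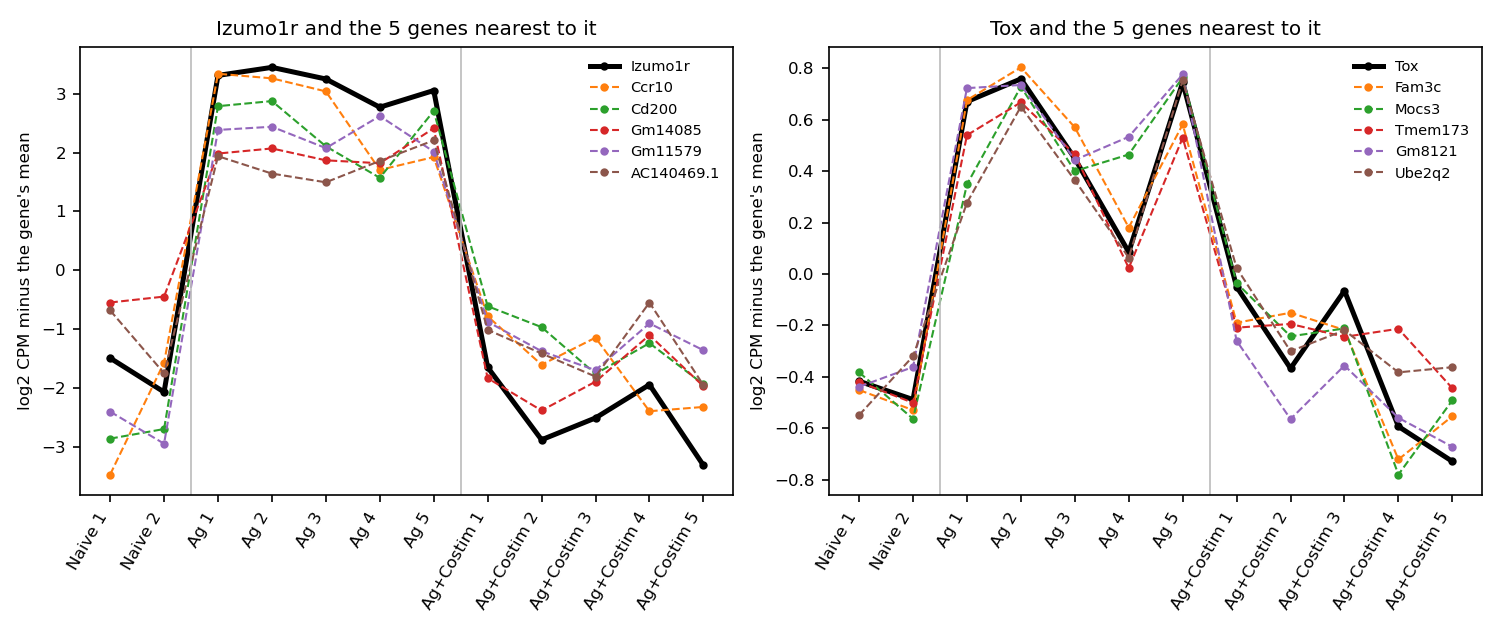
Centred log2 CPM (log2 CPM minus the mean of the gene over the 12 libraries) of Izumo1r and of Tox, each in black, and of the 5 genes nearest to each, dashed. The neighbours of each are highest in Ag, and the vertical scale of the Tox panel is narrower because its own range is -0.73 to 0.76 against -3.31 to 3.45 for Izumo1r.

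Other genes of the same families and pathways, 122 in 10 lists, were tested in the same fit over all genes. Of 102 that could be tested, 39 rose and 27 fell from Ag to Ag+Costim, 28 rose and 38 fell from Naive to Ag, and 34 rose and 32 fell from Naive to Ag+Costim. That is 64.7% called in each comparison, beside 53.1, 46.7 and 52.3% of all genes. These lists, like the 10 genes, were chosen with earlier results of these data known. Calls and adjusted p-values for their genes are thus descriptions, and nothing is read from the share called. The split depended on scaling: with upper-quartile factors it was 29 higher and 36 lower for Ag+Costim against Ag. With the trend on exon length removed it was 28 and 39, and for Ag against Naive 36 and 28. Upper-quartile scaling also moved the median of all genes from -0.05 to -0.24 for Ag+Costim against Ag. Each difference named below kept its direction in every alternative run. A value against Naive rests on 2 Naive libraries.

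Among the other diacylglycerol kinases, 3 of 6 tested rose and 1 fell with costimulation. Dgkd rose from 29.7 ± 4.52 to 83.7 ± 14.6 CPM (log2 fold change 1.50, SE 0.13) and Dgkq from 2.88 to 11.1 CPM (1.94, SE 0.19), while Dgkg fell from 1.62 to 0.239 CPM. Dgkd and Dgkq had both been lower in Ag than in Naive, by -2.19 and -3.07 on the log2 scale, as was Dgke by -1.03. Against Naive, Ag+Costim was lower in Dgkq (-1.14) and Dgkg (-2.97) and higher in Dgkh (1.24). In the genes that sense or produce diacylglycerol and switch RAS, 5 of 16 rose and 4 fell with costimulation, against 3 and 6 with upper-quartile scaling and 3 and 9 with the length correction. Plcg2, a phospholipase that makes diacylglycerol, rose by 2.54 (SE 0.17), the RAP and RAS exchange factor Rasgrp2 by 1.35 (SE 0.10) and the RAS inhibitor Nf1 by 1.02 (SE 0.28). Rasgrp1, the main diacylglycerol-bound RAS activator of T cells, was lower in Ag than in Naive (-1.87, SE 0.15), as was Nf1 (-1.27). Rasgrp3 had no count in either Naive library and was at least 32.4-fold higher in Ag and at least 20.5-fold higher in Ag+Costim, against a floor of 3 counts per library. Against Naive, Ag+Costim was also higher in Plcg2 (1.70) and lower in Rasgrp4 (-2.93). Without Naive replicate 2, the differences from Naive of Dgkg (-2.35), Dgkq (-0.74) and Rasgrp4 (-1.60) in Ag+Costim and of Nf1 (-1.14) in Ag missed the threshold. The Nf1 difference also missed it with the length correction (-0.59), and that of Rasgrp4 with a term for replicate number (-2.44).

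Among the relatives and partners of Cbl-b, 6 of 10 rose and 1 fell with costimulation, and with upper-quartile scaling 2 rose and 2 fell. Cbl, the closest relative of Cblb, rose by 0.59 (SE 0.16) and the phosphatidylinositol 3-kinase subunit Pik3r1 by 0.70 (SE 0.14), although the libraries of both overlapped and the rise of Cbl missed the threshold under upper-quartile scaling (0.38) and under the length correction (0.32). Ubash3b, which encodes the phosphatase Sts-1, fell by 1.14 on the log2 scale. Pik3r1, Cd2ap and Cbl were lower in Ag than in Naive by -1.88, -1.73 and -1.03, and Cd2ap, Pik3r1 and Sla2 were lower in Ag+Costim than in Naive by -1.73, -1.18 and -0.45. Itch belongs to the NEDD4 family. In the list of that family and linked genes, Ndfip1 and Tnfaip3 among them, 5 of 11 rose and 2 fell with costimulation. The counts were 4 and 4 with upper-quartile scaling and 3 and 4 with the length correction. Nedd4 itself had the largest log2 fold change of those named. It went from 39.9 ± 0.786 CPM in Naive to 5.79 ± 1.25 in Ag and 66.1 ± 13.6 in Ag+Costim, or 3.52 on the log2 scale between the last pair (SE 0.17, adjusted p = 1.08e-08 by edgeR's quasi-likelihood test), and every Ag+Costim library was higher. Ndfip1, an adaptor that activates Itch, was highest in Ag, at 905 ± 170 CPM against 517 ± 24.4 in Ag+Costim and 283 ± 16.0 in Naive. Tnfaip3, which encodes the deubiquitinase A20, rose by 0.82 with costimulation. Nedd4l was lower than in Naive in both Ag (-1.69) and Ag+Costim (-1.28), and Smurf1 and Smurf2 were lower in Ag+Costim (-1.27 and -1.15). The Sla2 difference missed the threshold without Naive replicate 1 (-0.40).

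Among the relatives and regulators of Rnf128, 4 of 8 fell and 2 rose with costimulation. Rnf167 fell from 533 ± 22.3 to 133 ± 46.5 CPM, Rnf130 from 7.90 to 1.98 CPM and Rnf149 from 27.8 to 11.2 CPM. Znrf3 and Rnf130 were lower than in Naive in Ag (-3.00 and -1.11) and in Ag+Costim (-2.56 and -3.10), Rnf167 was lower in Ag+Costim (-2.17), and Rnf43 was higher in Ag (1.06), which missed the threshold without Naive replicate 2 (0.84).

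Around Nt5e, 3 of 10 purine genes rose and 2 fell with costimulation, against 3 and 4 with upper-quartile scaling and 3 and 5 with the length correction. Adora2a, the receptor for adenosine that raises cyclic AMP, rose from 10.5 ± 1.87 CPM in Ag to 68.7 ± 8.12 in Ag+Costim (log2 fold change 2.71, SE 0.13, edgeR's adjusted p = 1.02e-08, higher in every library), the opposite direction to the Nt5e values. Ada, which breaks adenosine down, rose by 1.10 and the nucleoside transporter Slc29a2 by 1.06, the last with overlapping libraries. Entpd1 (CD39), which acts upstream of CD73, was higher than in Naive in Ag (2.59, SE 0.47) and in Ag+Costim (3.14, SE 0.48), as was the transporter Slc29a1 (2.19 and 1.92). Cd38 was higher in Ag (1.75) and Adora2a in Ag+Costim (1.63). Of the other folate genes only Slc19a1 and Slc46a1 could be tested, and neither passed the threshold between Ag and Ag+Costim. Slc46a1, a folate transporter at 1.59 CPM in Naive, was lower in Ag (-1.79) and in Ag+Costim (-2.28). The first missed the threshold without Ag replicate 2 (-1.66), Ag replicate 5 (-1.73), Naive replicate 1 (-1.55) or Naive replicate 2 (-1.99), and the second without Naive replicate 1 (-2.05).

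In the list of neuropilins, plexins and ligands, 5 of 12 genes rose and 1 fell with costimulation. Tgfb1, whose latent product binds Nrp1, went from 54.0 ± 0.557 CPM in Naive to 13.8 ± 3.75 in Ag and 106 ± 15.7 in Ag+Costim, or 2.95 on the log2 scale between the last pair (SE 0.17, adjusted p = 3.01e-08 by edgeR), higher in every library. Sema7a rose from 0.162 to 5.08 CPM and had no count in Naive, above which Ag+Costim stood at least 81.4-fold. Plxnb2 rose from 0.409 to 2.49 CPM. Nrp2 was lower than in Naive in Ag (-1.81) and Ag+Costim (-2.53), Plxnc1 was higher in Ag (1.82), and Plxnb2 was higher in Ag+Costim (2.81). The difference of Nrp2 in Ag missed the threshold without Naive replicate 1 (-1.76) or 2 (-1.85) and with the length correction (-1.24). That of Plxnb2 in Ag+Costim missed it without Naive replicate 1 (3.41) or 2 (2.38).

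Of the relatives of Tox and the inhibitory receptors often seen with it, 7 of 9 genes were higher in Ag than in Naive, 7 were higher in Ag+Costim than in Naive, and none was lower in either. Between Ag and Ag+Costim 5 rose and 3 fell, against 3 and 3 with upper-quartile scaling. Havcr2 (TIM-3) rose from 3.80 ± 0.794 to 66.6 ± 12.3 CPM (log2 fold change 4.14, SE 0.24, edgeR's adjusted p = 2.77e-08, higher in every library) and Lag3 from 12.1 ± 3.24 to 36.4 ± 5.27 CPM. Ctla4 fell from 142 ± 25.3 to 42.4 ± 14.2 CPM. Pdcd1 (PD-1) stood at 181 ± 33.1 CPM in Ag and 215 ± 54.1 in Ag+Costim, above the 3.44 CPM of Naive by 5.71 and 5.97 on the log2 scale.

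Of 18 transcription factors tied to the anergy programme, 9 fell and 5 rose with costimulation. Egr2 fell from 32.3 ± 4.13 to 4.72 ± 1.97 CPM (log2 fold change -2.77, SE 0.28, edgeR's adjusted p = 2.08e-06, lower in every library) and Egr3 from 4.95 to 0.750 CPM. Bhlhe40 rose from 9.42 ± 3.39 to 131 ± 61.5 CPM, and also stood above Naive (3.59, SE 0.52). Nr4a2 was higher than in Naive in Ag (5.10, SE 0.37) and in Ag+Costim (4.23, SE 0.35). Batf was higher in Ag than in Naive (1.43), Ikzf1 lower (-1.41), and Foxo3 lower in Ag+Costim than in Naive (-2.63).

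**Figure D5:**
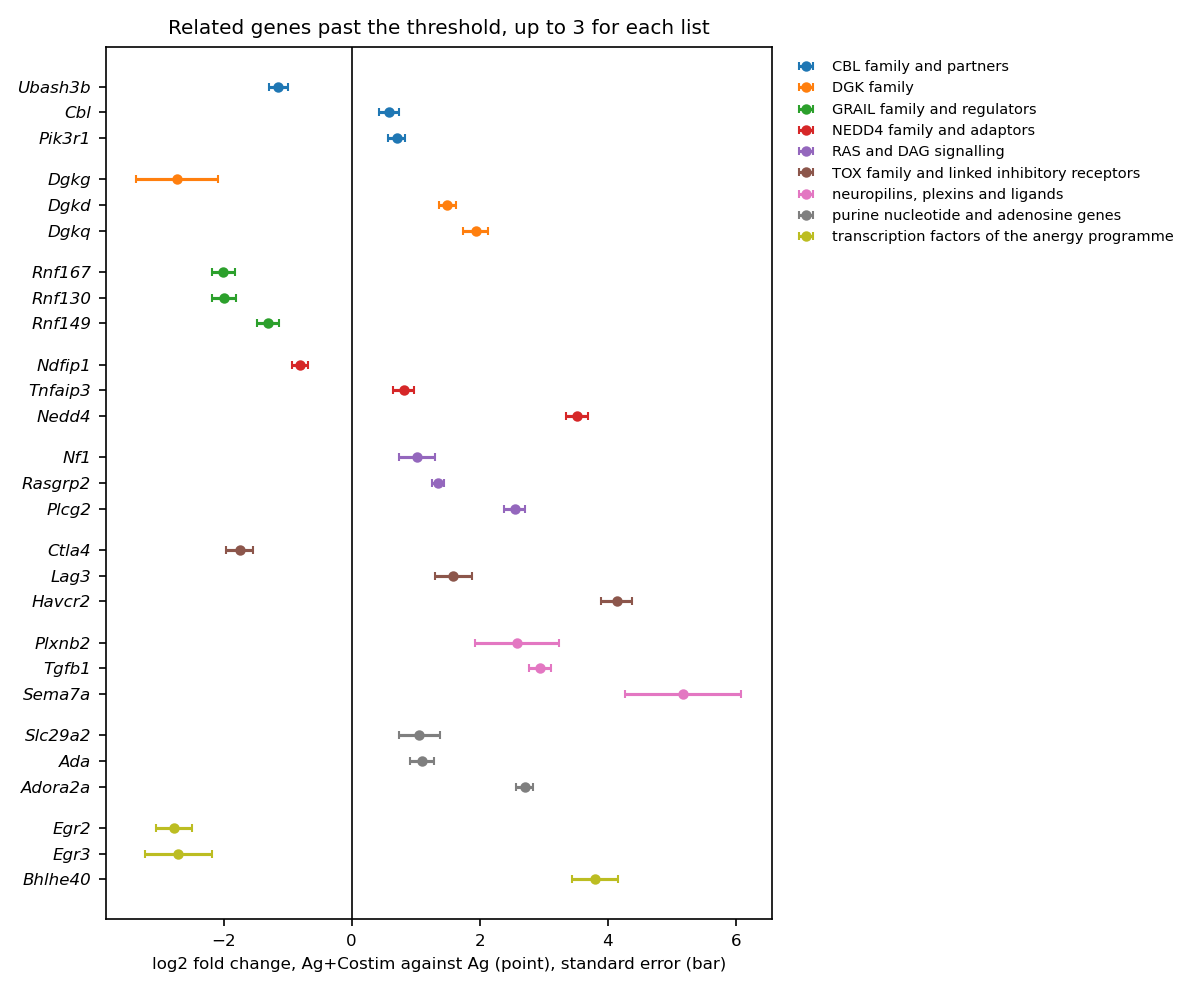
Log2 fold change of Ag+Costim against Ag (points) with standard errors (bars) for genes of the related lists, up to 3 per list with the largest size among those past edgeR's threshold. Nedd4, Havcr2, Bhlhe40 and Sema7a lie above 3, and Egr2, Egr3 and Dgkg between -2.77 and -2.71.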

How the data were processed

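RNA of sorted CD8 T cells was made into SMART-Seq and Nextera XT libraries, which do not mark strand, and read as single reads of 100 bases. Per the labels, the authors aligned reads to mm10 with HISAT2 2.1.0 and SAMtools 1.9 and assembled and counted them with StringTie 2.1.0; their notes also name R 4.0.5 and DESeq2 1.30.1. The deposited gene and transcript counts are StringTie counts derived from coverage. The FPKM values deposited by the authors have 1 row per transcript with a gene name only and were summed by gene. The deposited percent of reads aligned was 72.3 to 76.5 per library. The Psi values that the authors deposited are a fraction per node and group from Whippet, whose version and handling of replicates are not given in the sources used here. The change of Psi between groups and its probability, in the same file, are the authors' own comparison and were not used.

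Gene counts held 81881 entries, of which 26345 were unannotated loci, which took 0.0508 to 0.121% of each library and were not tested; 55536 matched GENCODE vM21. Groups came from the labels. edgeR 4.0.16 (R 4.3.3) was fitted over all 12 libraries with TMM factors, filterByExpr, no covariate and robust quasi-likelihood tests, and p-values were adjusted by Benjamini-Hochberg over 18817 genes at a threshold of 0.05. The study describes its RNA-seq samples as biological replicates, while the labels only number them and name no mouse, and the p-values measure the spread between libraries. SD is between libraries and SE is of the fit. A transcript share needed at least 20 transcript counts. In simulated counts for Ag+Costim against Ag, 200 of 18083 genes were changed, and 170 of them were recovered with 10 false calls. Median fitted log2 fold changes were 1.00 for genes raised and -1.035 for genes lowered. With so few genes changed, this does not test the scaling where 53.1% of genes are called. The plots and summaries were made with Python 3.11.15.

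The 10 genes and the lists of related genes were chosen with earlier results of these data known. Named related genes were, in each list and comparison, up to 3 called genes with the largest log2 fold change in size; nearest genes were the 5 with the smallest root mean square difference, among genes with mean log2 CPM above 1. Alternatives were upper-quartile and DESeq2 scaling, DESeq2 1.42.0, no low-count filter, only the 2 groups compared, a replicate block and a Y-linked term. Further ones were limma 3.58.1 on log2(FPKM + 1) and log2(FPKM + 0.1), a correction for exon length, and leaving out each library. The exon length joined all annotated exons of a gene, so it was not the length of a transcript.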

Additional observations from a re-analysis of the deposited data

Results flagged for a closer look

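In 40 sets of values (each of the 10 genes by CPM and by the share of its leading transcript, in Ag and in Ag+Costim), a library was picked out when its gap to the nearest other library was above the 95% critical value of Dixon's test, which chance passes in about 1 in 20 sets. For CPM this was Dgka in Ag+Costim replicate 4, at 576 CPM against 425 to 454 CPM in the other libraries of its group. The other cases were shares of transcript counts. Nrp1-201 took 70.0% in Ag replicate 4 against 81.6 to 85.5% in the other Ag libraries, and Nt5e-201 took 93.8% in the same library against 97.1 to 98.2%. Itch-201 took 14.6% in Ag replicate 2 against 59.9 to 77.5%. In Ag+Costim replicate 5, Rnf128-201 took 63.2% against 100% in each of the others and Dgkz-201 took 75.2% against 91.6 to 96.6%. Tox2-202 took 98.9% in Ag replicate 5 against 100% in the other Ag libraries with a share, and 92.2% in Ag+Costim replicate 1 against 99.4 to 100%. Where all others stood at 100%, as for Rnf128-201 and for Tox2-202 in Ag, any lower value is picked out. The rate of 1 in 20 does not hold there. In Ag replicate 5, 86 counts went to Tox2-202 and 1 to Tox2-204.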

How the results depend on the processing

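Of the 50 related genes named, 1778 of 1798 values under the alternatives kept their direction and side of the threshold, 20 missed the threshold and 0 reversed. Of the 10 genes, only Dgkz reversed in Ag+Costim against Ag, to -0.00399 with the length correction. Against Naive the sign varied between alternatives for some values whose 95% interval in the main fit included 0. They were Cblb (-0.087 to 0.634) and Dgkz (-0.184 to 0.349) in Ag, and Nt5e (-0.026 to 0.654) and Tox (-0.161 to 0.259) in Ag+Costim. The median log2 fold change differed in the fits of FPKM values, which left out Rnf128, below 1 FPKM in every library. For Ag+Costim against Ag it was -0.46 over the 10 genes by CPM, -0.78 with log2(FPKM + 1) and -0.79 with log2(FPKM + 0.1). For Ag against Naive it was 1.30, 0.42 and 0.77, and for Ag+Costim against Naive 0.38, 0.0068 and -0.026. In the CPM fit the median of -0.46 lay between -0.73 for Dgka and -0.18 for Rnf128, so without Rnf128 it is the Dgka value. Leaving out each library in turn gave medians of 1.00 to 1.59 for Ag against Naive, with 2906 to 4944 genes higher and 2807 to 4625 lower (4559 and 4233 with all libraries), the lowest of each without Naive replicate 2. Leading transcripts without overlap between Ag and Ag+Costim numbered 1, 2 with counts per transcript length (an alternative chosen after seeing the data), and 1 to 2 on leaving out each library, with 2 without Ag replicate 5 or Ag+Costim replicate 4. Shares of summed FPKM were not run, since those rows name no transcript. Upper-quartile scaling called 4056 genes higher and 6338 lower for Ag+Costim against Ag, where TMM called 5006 and 4979, and log2(FPKM + 1) gave 3678 and 5411 for Ag+Costim against Naive, against 5066 and 4778. With log2(FPKM + 1) Ag against Naive gave 3440 and 4740. The causes were not tested.

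The replicate numbers were shared by 9 pairs of libraries, whose deviations from the group means correlated at -0.0644 to 0.0952, against -0.0817 to 0.0746 in other pairs, and not every library correlated best with its own number. With a replicate block, 4993 genes were called higher and 4743 lower for Ag+Costim against Ag, and of the related genes named only Rasgrp4, in Ag+Costim against Naive, missed the threshold (-2.44). Depth limits Rnf128 and Tox2, which had as few as 6 and 17 counts in a Naive library.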
